A study of Oryza sativa with 4 samples.

Results

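The genes described here are the cytochrome P450 genes of rice that carry a systematic P450 name (CYP, a family number, a subfamily letter and a gene number) as symbol or synonym in the gene tables used, leaving out the CYP707A genes of abscisic acid breakdown. Genes entered by name, without a cut on a measured value, but the rule was set with earlier results of these data known. The gene table holds 36 such genes, of which 27 have a probe set of their own on the array, out of 17905 genes measured. The 9 without one are CYP90A3, CYP90B2, CYP90D2, CYP734A2, CYP734A5, CYP714B1, CYP714B2, CYP701A19 and CYP78A11, and they were not analysed here. A P450 gene without a systematic name in these tables could not enter, so the 27 are only part of the family. Where a gene has several probe sets, the one with the highest mean over the 4 samples stands for it.

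Leaf RNA of rice (Oryza sativa, cultivar Senia) at the 2-leaf vegetative stage (V2) was measured on Affymetrix rice arrays in 4 samples, 2 per group. In the 30% CO2 group, plants were put in sealed bags, CO2 was injected to 30%, and they stayed 6 h in the dark at 27 °C. In the control group, plants spent the same time in the dark at the same temperature in air labelled 0.04% CO2. Each sample pooled the leaves of 10 plants and is labelled a biological replicate, so that plant-to-plant spread within a sample is not measured. Whether controls were bagged too is not stated, so enclosure and CO2 level cannot be told apart. All plants shared the dark period, and no sample shows the genes in the light.

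Cytochrome P450 enzymes are heme proteins, most of them anchored in the endoplasmic reticulum, that insert oxygen from O2 into small molecules with electrons from NADPH. Plants use them to build and to inactivate hormones, among them gibberellins and brassinosteroids, and to make defence compounds such as the diterpenoid phytoalexins of rice. Allene oxide synthases of the CYP74 family are an exception, since they rearrange a fatty acid hydroperoxide and need neither O2 nor NADPH. The product leads to jasmonate.

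The samples differed in how far they stood from each other. Across 57194 probe sets, which are not independent of each other, the samples of a group correlated at 0.989 (30% CO2) and 0.993 (control), and samples of different groups at 0.951 to 0.968 (Pearson's r). On the first principal component 30% CO2 replicate 1 lay at 98.7 and replicate 2 at 62.7, against -78.0 and -83.3 in controls. Leaf markers read 7.72 or higher on the log2 scale in every sample, except RBCS1 at 2.74 to 3.30. RBCS (the small subunit of rubisco) read 13.63 and 13.64 under 30% CO2 and 13.65 and 13.64 in controls. Its probe set may also bind other transcripts, and it lay at the top of the array. The endosperm marker GLUA2 read 8.54 to 9.11, while the other endosperm markers read 4.16 or lower, so the lists alone do not settle the tissue. In limma's test 3 of 9 leaf markers fell, 1 of 5 root markers fell, 1 of 6 anther markers rose, 1 of 19 dividing-cell markers fell and 0 of 6 endosperm markers passed (0 at an unadjusted p under 0.05). The root markers NAS1 and NAS2 read 11.15 and 10.70 in control replicate 1 alone, against 4.24 to 5.19 in the other 3 samples. The part of these markers in the P450 results was not tested.

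Under 30% CO2, 9 of the 27 P450 genes fell, 0 rose and 18 did not pass (limma, adjusted p under 0.05 over all 17905 genes). The 9 are CYP734A6 and CYP724B1 of brassinosteroid metabolism, CYP701A6, CYP88A5 and CYP714C2 of the gibberellin group, CYP74A2 and CYP74A1, which encode allene oxide synthases, and CYP71Z6 and CYP76M7 of the diterpenoid phytoalexin group. Their folds ran from 1.43 to 3.08, and 4 of them (CYP734A6, CYP701A6, CYP74A2 and CYP724B1) fell at least 2-fold. Of all 17905 genes, 18.8% had groups that did not overlap and differed at least 2-fold, in either direction. As these are bulk samples, fewer cells of a type and less RNA per cell cannot be told apart.

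Of all genes tested, 18.8% fell, 12.4% rose and 31.2% passed in either direction. The 9 that passed are 33.3% of the P450 genes, which is near the 31.2% of all genes, so that passing as such does not set them apart. By direction, 33.3% of the P450 genes fell beside 18.8% of all genes, and none of the 27 rose beside 12.4%. That none rose depends on leaving out the CYP707A genes, of which CYP707A5 rose (log2 fold change 4.01 ± 0.38, limma adjusted p = 0.00399). It also depends on the probe set taken for CYP714C1, whose other set was higher (1.00 ± 0.20, limma adjusted p = 0.0426 over all probe sets). The difference in direction was not tested, and its falling part was not seen in every fit. With the replicate number as a block, 11.1% of the P450 genes and 12.2% of all genes fell, and none of the 27 rose beside 8.25%. Without 30% CO2 replicate 1 the falling shares were also close. The median log2 fold change there was -0.25 in the P450 genes and -0.04 in all genes. Without 30% CO2 replicate 2 the medians were -0.37 and -0.12. At an unadjusted p under 0.05, 1 P450 gene was higher (CYP71P1) and 11 were lower. The shares of all genes at this cut were not counted, so these counts have no comparison. The median log2 fold change of the 27 genes was -0.34, against -0.08 over all genes, while the median size without regard to sign was 0.36 against 0.39. In 21 of the 27 genes the 2 groups did not overlap, which is 77.8% against 67.5% of all genes.

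**Figure D1:**
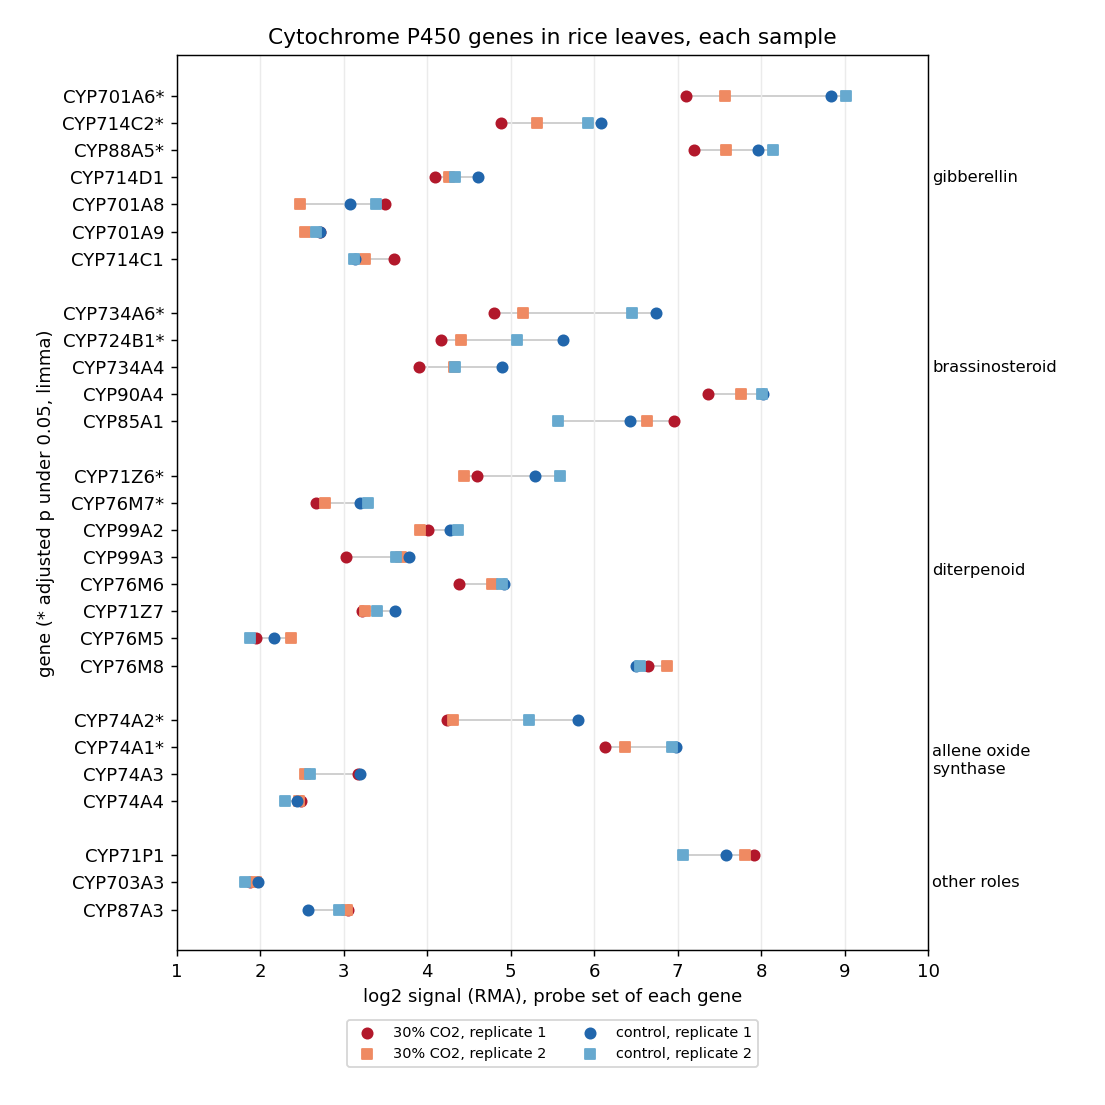
Log2 signal of each of the 27 P450 genes (rows, grouped by role) in each of the 4 samples, 30% CO2 in red and orange and control in blue. Asterisks mark the 9 genes past an adjusted p of 0.05, and in each of these both 30% CO2 samples lie left of (below) both controls.

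Fewer genes passed when a sample was left out. Without control replicate 1, and likewise without control replicate 2, 0 of the 27 genes passed, and so did 0 of all 17905 genes. Without 30% CO2 replicate 1 the count was 2 (CYP701A6 and CYP734A6), and without 30% CO2 replicate 2 it was 6, of which CYP90A4 is not among the 9. These fits have 1 residual degree of freedom, and the lone sample of a group is assumed to vary like the other group. All 9 stayed below 0 in each of the 13 alternatives in which they had a probe set, but most of these could not change the sign. The groups do not overlap in any of the 9, so leaving out a sample cannot change it. Settings that alter only the error or the adjustment keep the fold change as it is. In 8 of the 9, 30% CO2 replicate 1 was lower than replicate 2. The exception is CYP71Z6. Of all 3369 genes that fell, 68.1% had replicate 1 below replicate 2.

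**Figure D2:**
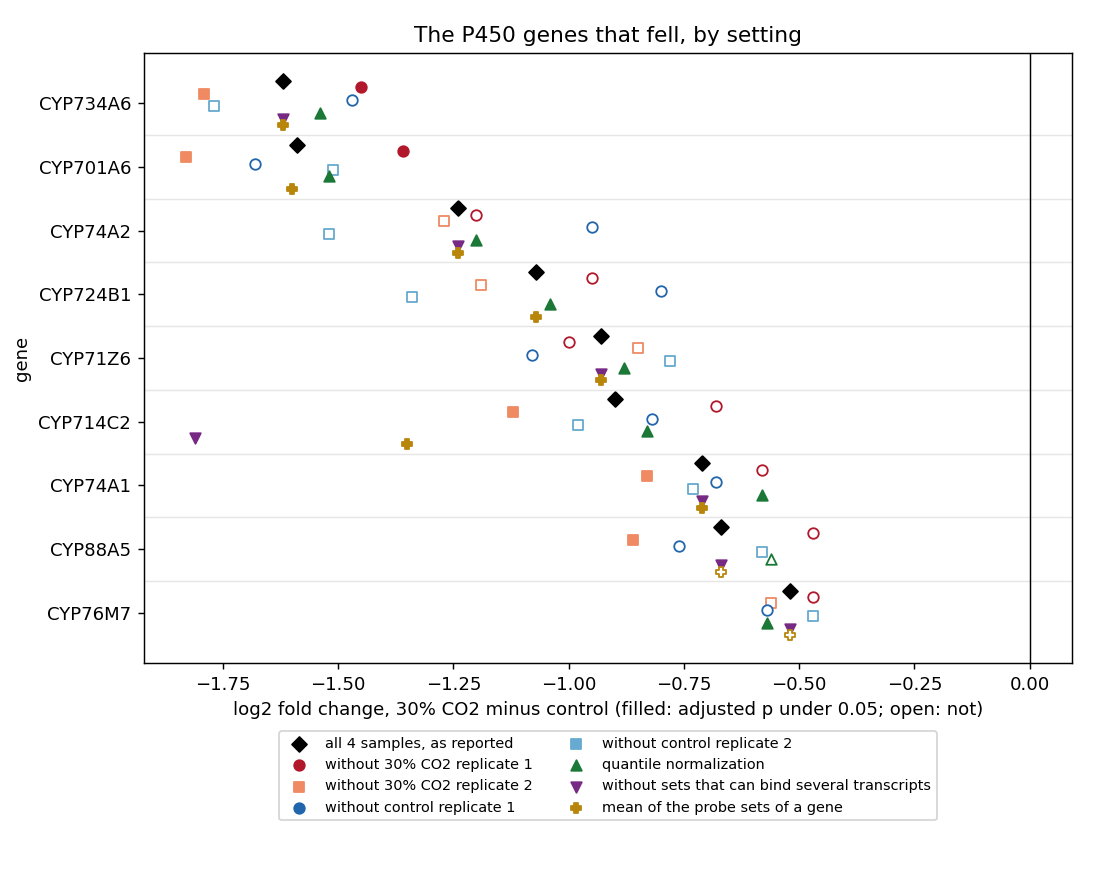
Log2 fold change (30% CO2 minus control, horizontal axis) of the 9 P450 genes that fell, with all samples, without each sample and under 3 other choices. Filled symbols passed an adjusted p of 0.05 and open ones did not. All symbols lie below 0, and without control replicate 1 or 2 every symbol is open.

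Among the 7 P450 genes of the gibberellin group 3 fell, and 2 of these, CYP701A6 and CYP88A5, encode steps of gibberellin synthesis. CYP701A6 (LOC4341347, also KO2 and D35) encodes ent-kaurene oxidase, which turns ent-kaurene into ent-kaurenoic acid. Its log2 signal was 7.10 and 7.57 in the 30% CO2 samples, against 8.84 and 9.01 in controls. The groups lay 1.27 apart at their nearest samples, and the log2 fold change was -1.59 ± 0.20 (limma SE; adjusted p = 0.00673), a 3.02-fold fall. Both of its probe sets fell by nearly the same amount, the other one with a log2 fold change of -1.60 ± 0.22. Both sets may also bind other transcripts, and the gene's record also carries the name CYP701A19, so a close copy may share the signal.

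CYP88A5 (LOC4339885, also KAO) encodes ent-kaurenoic acid oxidase, the next step. Its signal was 7.19 and 7.58 under 30% CO2 and 7.96 and 8.14 in controls. The groups did not overlap, and the log2 fold change was -0.67 ± 0.18 (limma, adjusted p = 0.0473). This was the call closest to the threshold, lost for instance after quantile normalization (-0.56, adjusted p = 0.0551), without 30% CO2 replicate 1 (-0.47, adjusted p = 0.145) and when p-values were adjusted over all probe sets (adjusted p = 0.0889).

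CYP714 enzymes modify gibberellins. CYP714D1 (EUI1, Elongated Uppermost Internode), which inactivates gibberellins by epoxidation, read 4.09 and 4.26 under 30% CO2 and 4.61 and 4.33 in controls, a difference of -0.29 ± 0.16 that did not pass (limma, adjusted p = 0.215). CYP714C1 and CYP714C2 are direct neighbours in the gene table, with 0 genes between them, and they did not move together. CYP714C2 (LOC4351346) read 4.88 and 5.32 under 30% CO2 and 6.08 and 5.92 in controls, with a log2 fold change of -0.90 ± 0.19 (limma, adjusted p = 0.0248).

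The probe set behind that value may also bind other transcripts. The other probe set of CYP714C2 read 2.46 and 2.67 under 30% CO2 against 4.10 and 4.65 in controls, which is a larger difference of -1.81 ± 0.22. CYP714C1 (LOC4351345) did not pass on its representative set, at 3.60 and 3.25 under 30% CO2 and 3.14 and 3.12 in controls (log2 fold change 0.30 ± 0.16, limma adjusted p = 0.222). On its other probe set it read 3.78 and 3.35 under 30% CO2 and 2.70 and 2.43 in controls, a log2 fold change of 1.00 ± 0.20 (limma, adjusted p = 0.0426 over all probe sets). The choice of probe set thus decides whether CYP714C1 is called higher, while CYP714C2 was lower on both of its sets. The table gives no detection calls. The controls' mean of the representative set of CYP714C1 was at the 37.0th percentile of all probe sets.

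CYP701A8 and CYP701A9 are relatives of ent-kaurene oxidase that lie beside CYP701A6, with 1 gene between each and the next. CYP701A9 read 2.54 to 2.72 over all 4 samples. CYP701A8, known to act in phytoalexin synthesis rather than gibberellin synthesis, read 3.49 and 2.47 under 30% CO2 and 3.08 and 3.38 in controls, so that its 30% CO2 samples lay on both sides of the controls. The other 4 of the 7 genes did not pass, and the median log2 fold change of the group was -0.29.

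The gibberellin genes outside the P450 family were too few in the tables for more than single values. Of 4 (CPS1, KS1, GA20OX2 and GA20OX3), 0 passed in limma's test and 2 had an unadjusted p under 0.05. CPS1, the copalyl diphosphate synthase gene that opens the route, read 7.43 and 7.39 under 30% CO2 and 7.21 and 7.44 in controls. KS1, for the kaurene synthase just before CYP701A6, read 6.95 and 6.91 under 30% CO2 and 7.37 and 7.33 in controls (log2 fold change -0.42 ± 0.12, limma adjusted p = 0.0501). The probe set of KS1 may also bind other transcripts. GA20OX3, for a gibberellin 20-oxidase, was on the other side, with 7.36 and 7.16 under 30% CO2 and 6.68 and 5.99 in controls (0.92 ± 0.26, limma adjusted p = 0.0534). GA20OX2, known as the semidwarf gene SD1, read 5.16 and 6.09 under 30% CO2 and 6.31 and 6.15 in controls. Neither GA20OX gene passed.

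**Figure D3:**
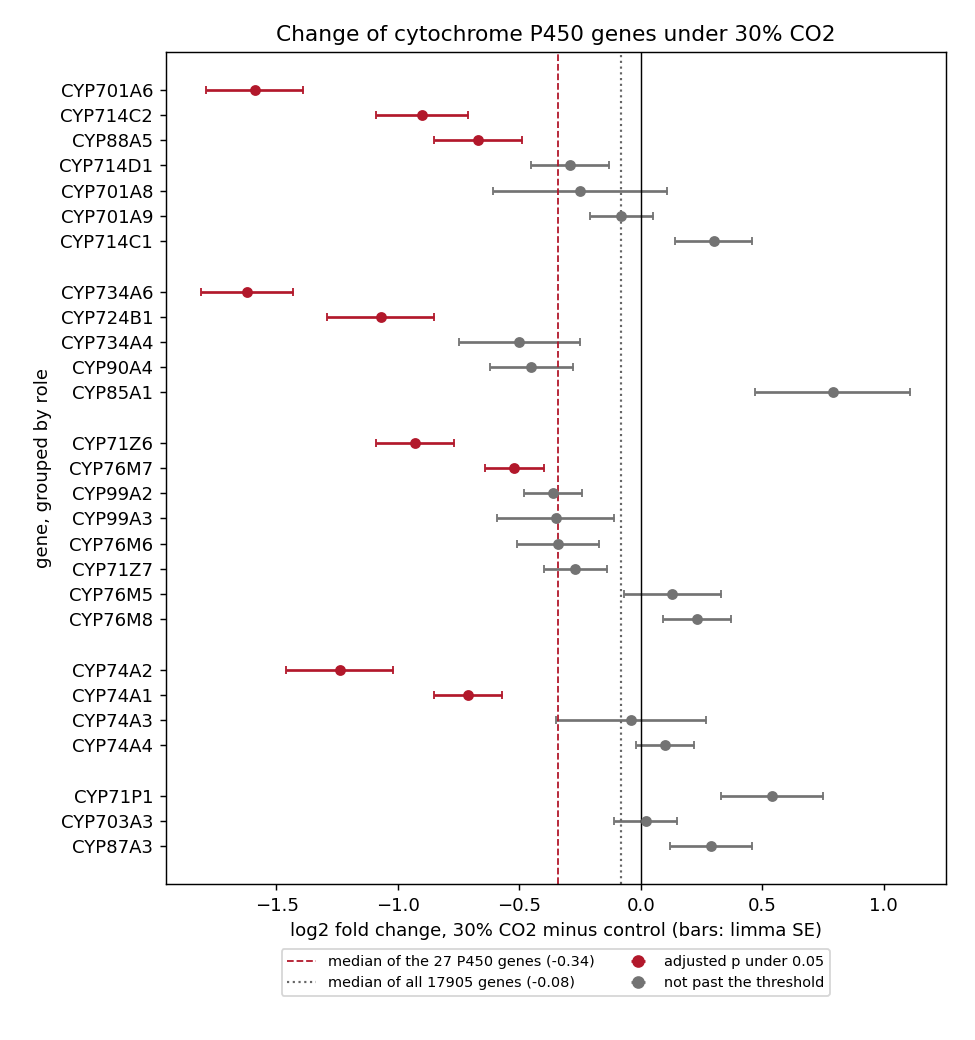
Log2 fold change (30% CO2 minus control) of each of the 27 P450 genes with limma's standard error, grouped by role as in the plot of signals. The dashed line is the median of the P450 genes (-0.34), the dotted line that of all 17905 genes (-0.08), and the 9 genes in red passed, all to the left of 0.

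In brassinosteroid metabolism 1 gene of synthesis and 1 gene of breakdown fell. CYP734A6 (LOC4325222) encodes an enzyme that inactivates brassinosteroids by hydroxylation. It read 4.80 and 5.15 under 30% CO2 and 6.74 and 6.45 in controls. The nearest samples of the groups were 1.30 apart, and the log2 fold change of -1.62 ± 0.19 (limma, adjusted p = 0.00573) was the largest in size among the 27 on representative probe sets with all samples. CYP701A6 was further from 0 without 30% CO2 replicate 2 (-1.83 against -1.79) and without control replicate 1 (-1.68 against -1.47), as was CYP714C2 on its other probe set (-1.81). Its relative CYP734A4 read 3.90 and 4.32 under 30% CO2 and 4.89 and 4.33 in controls, with nearest samples 0.01 apart, and did not pass (-0.50 ± 0.25, adjusted p = 0.195).

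CYP724B1 (LOC4336116, also D11) acts in brassinosteroid synthesis, and mutants of it are dwarfs with small grains. Its signal was 4.16 and 4.40 under 30% CO2 and 5.63 and 5.08 in controls, a log2 fold change of -1.07 ± 0.22 (limma, adjusted p = 0.0242). Its only probe set may also bind other transcripts. With 1 sample left out the log2 fold change ran from -1.34 to -0.80. The call was lost in each such fit, but without either control every gene lost its call.

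The other genes of brassinosteroid synthesis did not pass. CYP90A4 (CPD2) read 7.36 and 7.76 under 30% CO2 and 8.02 and 8.01 in controls. Its difference of -0.45 ± 0.17 gave an adjusted p of 0.112 in limma's test, and passed without 30% CO2 replicate 2 (-0.65, adjusted p = 0.0498). CYP85A1 (also DWARF), for the C-6 oxidase that completes castasterone, stood on the opposite side at 6.96 and 6.63 under 30% CO2 and 6.43 and 5.57 in controls. The groups did not overlap, but the controls differed from each other by more than the gap between groups, and the difference of 0.79 ± 0.32 did not pass (limma, adjusted p = 0.124). In all 2 of 5 fell and 3 did not pass, with a median of -0.50. Of 4 other genes of the pathway (BRI1, BAK1, BZR1 and BU1, for the receptor, its partner and downstream factors) 0 passed in limma's test, 1 at an unadjusted p under 0.05, and their differences ran from -0.53 to 0.34.

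Allene oxide synthases start the branch that leads from fatty acid hydroperoxides to jasmonate. CYP74A1 and CYP74A2 fell, and CYP74A3 and CYP74A4 did not pass. CYP74A2 (LOC4332121, also AOS2) read 4.24 and 4.31 under 30% CO2 and 5.80 and 5.22 in controls. The 30% CO2 samples were close together and both below the controls, with a log2 fold change of -1.24 ± 0.22 (limma, adjusted p = 0.0161). With 1 sample left out it ran from -1.52 to -0.95. The call was lost in each such fit, as was that of every gene without either control.

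CYP74A1 (LOC4334233, also AOS1 and PRECOCIOUS) read 6.13 and 6.37 under 30% CO2 and 6.98 and 6.93 in controls, a log2 fold change of -0.71 ± 0.14 (limma, adjusted p = 0.0217). Without 30% CO2 replicate 1 it was -0.58 (adjusted p = 0.0798). CYP74A3 and CYP74A4 are direct neighbours in the gene table. CYP74A3 read 3.17 and 2.53 under 30% CO2 and 3.19 and 2.59 in controls, and CYP74A4 read 2.49 and 2.46 under 30% CO2 and 2.44 and 2.30 in controls. In CYP74A3 the replicates of each group differed far more than the groups.

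Of 16 other genes with oxylipin names (LOX, AOC, OPR, JAR1 and COI1), 3 rose, 2 fell and 11 did not pass. They were taken by name, so that a gene among them need not act in jasmonate synthesis. The 5 that passed are 31.2% of the 16, the same share as of all genes. The allene oxide cyclase gene (LOC4333201), for the step directly after CYP74A, fell to 7.25 and 7.55 under 30% CO2, against 8.86 and 8.72 in controls (log2 fold change -1.39 ± 0.16, limma adjusted p = 0.00554). LOX9, a lipoxygenase gene, fell by 1.13 on the log2 scale (limma, adjusted p = 0.0486). LOX5, for a lipoxygenase, was higher, at 11.25 and 10.49 under 30% CO2 and 8.59 and 7.85 in controls (2.65 ± 0.36, limma adjusted p = 0.00829).

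JAR1, for the enzyme that joins jasmonate to isoleucine, rose by 0.57 ± 0.12 on the log2 scale (limma, adjusted p = 0.025). COI1 (also COI1A), for a receptor of that conjugate, rose by 0.77 ± 0.12 (limma, adjusted p = 0.0114). A second COI1 gene, COI1B, did not pass, at 10.82 and 10.80 under 30% CO2 and 10.95 and 10.99 in controls (-0.16 ± 0.12, limma adjusted p = 0.353). OPR1, for an oxophytodienoate reductase, read 9.35 and 7.19 under 30% CO2 and 5.96 and 5.78 in controls. It did not pass, as its 30% CO2 replicates lay 2.16 apart (2.40 ± 0.70, limma adjusted p = 0.0596). OPR13 (also OPR7), known for the reductase that acts in jasmonate synthesis in rice, did not pass either, at 7.68 and 7.67 under 30% CO2 and 8.33 and 8.02 in controls.

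**Figure D4:**
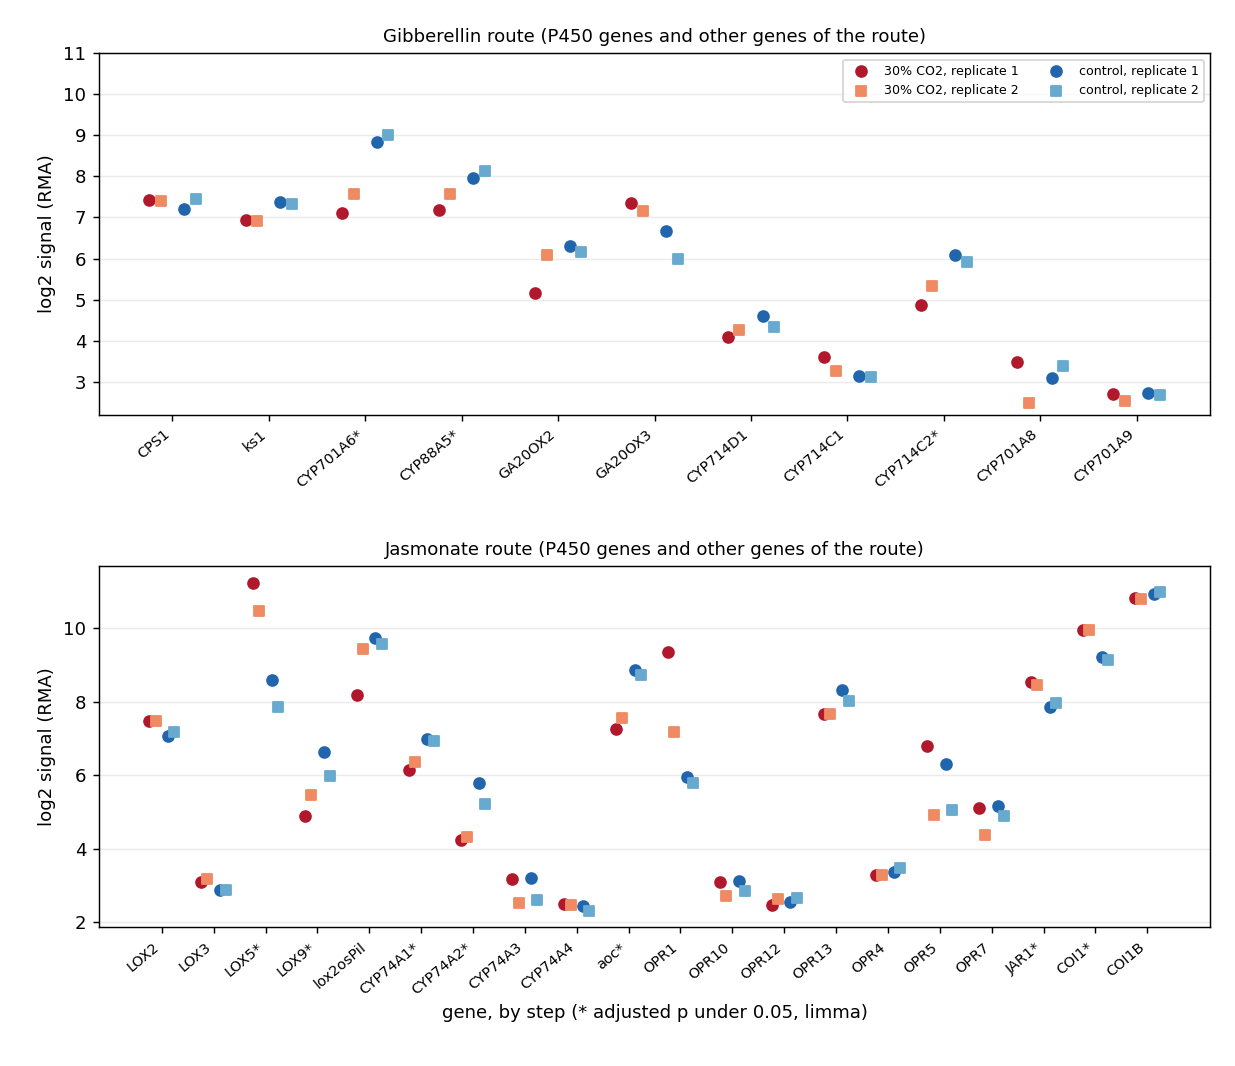
Log2 signal in each sample (30% CO2 in red and orange, left, control in blue, right) for genes of the gibberellin route (top) and genes with oxylipin names (bottom), P450 genes among the other genes. The lower panel is titled jasmonate route, but its genes were taken by name and need not all act in jasmonate synthesis. Asterisks mark an adjusted p under 0.05 in limma's test. CYP701A6, CYP74A1, CYP74A2 and the allene oxide cyclase gene (aoc) lie lower under 30% CO2, while LOX5, JAR1 and COI1 lie higher.

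Diterpenoid phytoalexins of rice are made by P450 enzymes and diterpene synthases whose genes lie together in the genome. In the gene table CYP76M5, CYP76M8, KSL7, CYP71Z6, CYP71Z7, CPS2, KSL5 and CYP76M6 follow each other with at most 2 other genes between consecutive ones, and so do CPS4, CYP99A3, MAS, KSL4 and CYP99A2. Of the 8 P450 genes of this group 2 fell and 6 did not pass, and with CYP701A8 counted here as well it was 2 of 9. The median log2 fold change of the 8 was -0.34, equal to that of all 27.

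CYP71Z6 (LOC4329725), known for a hydroxylase acting on ent-isokaurene, read 4.59 and 4.44 under 30% CO2 and 5.29 and 5.59 in controls. The log2 fold change was -0.93 ± 0.16 (limma, adjusted p = 0.0142), and it ran from -1.08 to -0.78 with 1 sample left out. The call was lost in each such fit, as was that of every gene without either control. Its neighbour CYP71Z7, known for a hydroxylase of the phytocassane route, read 3.22 and 3.26 under 30% CO2 and 3.61 and 3.40 in controls (-0.27 ± 0.13, adjusted p = 0.192).

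CYP76M7 (LOC4341447), known for the hydroxylation of ent-cassadiene, read 2.67 and 2.77 under 30% CO2 and 3.19 and 3.29 in controls, a log2 fold change of -0.52 ± 0.12 (limma, adjusted p = 0.0347). This is the smallest change among the 9, at a control level at the 39.5th percentile of all probe sets. The call was lost with adjustment over all probe sets (limma, adjusted p = 0.0666). With 1 sample left out the change ran from -0.57 to -0.47. The call was lost in each such fit too, as was that of every gene without either control. Its record lies apart from the other CYP76M genes, with 5 genes between it and CYP734A4, and carries locus names from both places, so the identity of the measured copy is uncertain.

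The other CYP76M genes did not pass. CYP76M8, on a probe set that may also bind other transcripts, read 6.64 and 6.87 under 30% CO2 and 6.50 and 6.55 in controls. CYP76M6 read 4.38 and 4.78 under 30% CO2 and 4.92 and 4.90 in controls, and its 2 probe sets differed in sign (-0.34 and 0.19). CYP76M5 read between 1.88 and 2.37 in the 4 samples, at the low end of the array, with overlapping groups.

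CYP99A2 and CYP99A3, which belong to the momilactone gene cluster, did not pass either. CYP99A2 read 4.01 and 3.91 under 30% CO2 and 4.27 and 4.37 in controls (-0.36 ± 0.12, limma adjusted p = 0.0882). CYP99A3 read 3.03 and 3.68 under 30% CO2 and 3.78 and 3.63 in controls, with overlapping groups. Of 7 other genes of the pathway, namely the diterpene synthase genes CPS2, CPS4, KSL4, KSL5, KSL7 and KSL10 and the momilactone A synthase gene MAS, 1 fell (KSL10, -0.60 ± 0.16, limma adjusted p = 0.045) and 6 did not pass. All 7 differences were below 0, from -0.60 to -0.13, and the highest signal of any of them in any sample was at the 42.8th percentile.

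Single members stood for 3 further roles. CYP71P1 (LOC4351945), the tryptamine 5-hydroxylase of serotonin synthesis whose loss gives the Sekiguchi lesion phenotype, read 7.91 and 7.81 under 30% CO2 and 7.58 and 7.06 in controls. It was higher in both 30% CO2 samples without passing (0.54 ± 0.21, limma adjusted p = 0.111), and its other probe set differed by 0.31 ± 0.14. CYP703A3, which acts on fatty acids for the pollen wall in anthers, read 1.82 to 1.97 in all 4 samples, at or below the 1.8th percentile of all probe sets. CYP87A3 read 3.05 and 3.04 under 30% CO2 and 2.57 and 2.94 in controls (0.29 ± 0.17, limma adjusted p = 0.246).

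Of the 18 genes that did not pass, 10 were lower and 8 higher under 30% CO2, with log2 differences from -0.50 to 0.79. In 12 of the 18 the groups did not overlap. The 67.5% of all genes includes genes that passed, so it is not a like comparison for the 18. With 2 samples a group and standard errors from 0.12 to 0.36 over the 27 genes, a miss does not show that a gene was unchanged. In controls 11 of the 27 genes read below the middle of all probe sets, and 1 of the 9 that fell did so (CYP76M7).

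No gene with a systematic P450 name in the gene table fell in the strigolactone or phenylpropanoid group. P450 genes of these routes that go by other names were not searched for. Of other genes there, 1 of 4 strigolactone genes rose and 3 did not pass, and 1 of 20 phenylpropanoid genes rose, 6 fell and 13 did not pass (limma, adjusted p under 0.05). The 7 phenylpropanoid genes that passed are 35.0% of the list, near the 31.2% of all genes. No gene was found under the names searched for the electron donors of P450 enzymes. The CYP707A genes, for abscisic acid 8'-hydroxylases, differed from the 27 in that CYP707A5 was far higher, at 10.04 and 9.30 under 30% CO2 and 6.08 and 5.24 in controls, while CYP707A6 read 7.38 and 6.79 under 30% CO2 and 7.13 and 6.46 in controls, with overlapping groups.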

How the data were processed

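RNA was hybridised to Affymetrix rice arrays, 1 per sample. The authors deposited a log2 signal for every probe set and sample, and RMA and limma are named per the submitters' processing notes, without versions. No rescaling, filter or imputation was applied, and detection calls are not given. Of 57194 probe sets 22436 map to 1 gene, 95 to several (not used) and the rest are unnamed here. Names came from the array annotation, updated by gene identifier through a RefSeq gene table (assembly ASM3414082v1, used for names and gene order only).

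Each probe set was fitted with limma 3.58.1 (lmFit, then eBayes, two-sided, without a block, R 4.3.3), with Benjamini-Hochberg adjustment over the 17905 representative probe sets. The fit had 2 residual degrees of freedom, to which limma's prior brought another 2.85. Differences run 30% CO2 minus control, and errors on them are limma's standard errors. The number of arrays limits the precision. The procedure was also run on simulated data with independent errors and few changed probe sets. These settings differ from the data, so that run does not bear on the calls made here. Figures used matplotlib 3.10.9 in Python 3.11.15.

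Members, role groups, pathway lists and marker lists (leaf, root, anther, dividing cells, endosperm) were chosen with earlier results of these data known. Described in full are all genes that passed and, per role group, the 2 with the smallest p among the others. The remaining 7 genes are given too, chosen after their values were seen. The 13 alternatives are the replicate number as a block (straight and crossed), each sample left out, quantile normalization, a level filter, no probe sets that can bind several transcripts, the mean of probe sets, limma's trend and robust priors, and adjustment over all probe sets. The crossed block and the last were chosen after seeing the data.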

Additional observations from a re-analysis of the deposited data

How the results depend on the processing

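Under the alternatives that keep all 4 samples 0 of the 27 P450 genes rose, with the CYP707A genes left out. None of these let the other probe set of CYP714C1, which was higher, stand alone for the gene. The count of P450 genes that fell, 9 with all samples, was 3 with the replicate block and ran from 0 to 6 when 1 sample was left out. With the replicate block 3 of the 9 calls stayed (CYP701A6, CYP734A6 and CYP74A2), and with 1 sample left out 0 to 5 stayed. With the replicate block 1478 of all genes rose and 2188 fell, against 2218 and 3369 without it, so that 11.1% of the P450 genes and 12.2% of all genes fell. Over all genes, 922 rose and 1308 fell without 30% CO2 replicate 1, and 0 passed without control replicate 1 or without control replicate 2. Under the other settings 7 to 9 P450 genes fell, all among the 9. The median log2 fold change stayed between -0.37 and -0.25 except where probe sets under the array's median signal were left out. There it was -0.58 over the 16 genes left, a change in which genes are counted. With 1 sample left out its range was -0.37 to -0.25. CYP88A5 passed in 3 of 13 alternatives and CYP76M7 in 4 of 12. Among the 20 genes chosen by rule, the sign changed only in CYP703A3 and CYP74A3, which did not pass. Their groups overlapped, and where groups do not overlap leaving out a sample cannot change the sign. CYP703A3, at 0.02 with all samples and up to 0.10 with 1 left out, gave -0.01 without 30% CO2 replicate 2 and -0.05 without control replicate 2, and CYP74A3 gave 0.28 without 30% CO2 replicate 2 and 0.26 without control replicate 1. The cause was not tested.

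The labels number the replicates in each group but name no shared litter, batch or day, and deviations of same-numbered samples correlated at -0.10 across probe sets, so the numbers are not taken as pairs. With the numbers crossed, 7 P450 genes fell and 0 rose, in a fit with 1 residual degree of freedom as in the replicate block. No detection calls are given, so a low signal such as that of CYP76M5 or CYP703A3 cannot be told from background.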
